A study of Mus musculus with 2 samples.

Results

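Dendritic epidermal T cells (DETCs), the γδ T cells that reside among keratinocytes (KCs) in mouse epidermis, carry receptors that are best known from natural killer (NK) cells. The RNA of 10 genes of this kind was examined in single cells of mouse ear epidermis, out of 31053 genes in the table. The 10 genes were taken as a list by name, with no threshold on a measured value but with earlier results of these data known. They were the activating receptor gene Klrk1 (NKG2D), its adaptors Hcst (DAP10) and Tyrobp (DAP12), the CD94/NKG2 genes Klrd1 (CD94), Klrc1 (NKG2A) and Klrc2 (NKG2C), the lectin-like receptor genes Klre1, Klrb1b (NKR-P1B) and Klrg1, and Cd244 (2B4).

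Epidermal lymphocytes (sorted as CD45+EpCAM-MHC-II-) came from WT female FVB/NJ mice aged 8 weeks, 7 d after intradermal injection of isotype control antibody or of an antibody to Skint1, a KC protein. Each treatment gave 1 library of 10x 3′ single-cell RNA, in which unique molecular identifiers (UMIs) count mRNA molecules. Treatment and library therefore cannot be told apart, and there is no replicate and no test between them. The legend for these libraries sets n at 1 per group, where n by default counts individual mice. Intervals below are 95% exact intervals and cover counting error only, since cells of 1 library are not replicates.

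A barcode counted as a cell if it held 500 to 2500 genes and no more than 12% mitochondrial UMIs, which gave 4242 cells with isotype and 5961 with Skint1 antibody, at medians of 4046 and 3604 UMIs. Pairs of values below give the isotype library first and the Skint1 antibody library second. Only 5 of these barcodes occurred in both libraries. Cells were classed by T cell receptor, CD3 and transcription factor genes, none of them among the 10. The DETC class (at least 3 Trdc and 3 CD3 UMIs, no Trac, Cd4, Cd8a or Cd8b1) held 3544 and 4945 cells, the αβ T class (at least 1 Trac UMI, no Trdv4) 197 and 213, and the innate lymphoid cell (ILC) class (at least 3 UMIs over Il7r, Rora and Gata3, at most 2 CD3 UMIs, no Trdv4) 82 and 139. Trdv4, the variable gene of the canonical DETC receptor, stood at 978 and 789 UMIs per 1000000 of the class total (CPM) in the DETC class, while Ncr1 and Eomes, which define NK cells, stood at or below 0.682 CPM there. The full list of 6 NK markers summed to 653 and 641 CPM in DETCs, mostly from the perforin gene Prf1, and to 89.9 and 110 CPM in αβ T cells. The αβ T class was less clean than its name, because 39 and 57 of its barcodes also held Trdc. In the ILC class the summed KC markers came to 449 and 3609 CPM and the summed myeloid markers (6 and 5 of 7 with a UMI) to 1055 and 1624 CPM, beside 10.4 and 9.52 CPM of myeloid markers in DETCs.

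NKG2D binds stress-induced ligands and has no signaling motif of its own, so it depends on adaptors. DAP10 carries a tyrosine motif that binds phosphatidylinositol 3-kinase (PI3K) and Grb2, whereas DAP12 carries an immunoreceptor tyrosine-based activation motif (ITAM) that recruits Syk and ZAP-70. CD94 pairs with NKG2A, which inhibits, or with NKG2C, which activates through DAP12, and both pairs see the non-classical MHC molecule Qa-1b (H2-T23). NKR-P1B inhibits on binding Clr-b (Clec2d), KLRG1 inhibits on binding E-cadherin (Cdh1), and 2B4 binds CD48 and signals through small adaptors of the SAP family. NKG2D and CD94 are known surface proteins of DETCs, and DETC recognition of stressed KCs through NKG2D is well described.

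Motifs that go with these roles are shown as coding sequence, 5′ to 3′, read from the GENCODE vM21 transcripts of build GRCm38, with the codons of the motif in capitals and up to 7 codons on each side. They show what separates the adaptors from each other and the inhibitory tails from the 2B4 tail.
Hcst, PI3K-binding motif: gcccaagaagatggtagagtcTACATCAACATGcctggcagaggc
Tyrobp, ITAM: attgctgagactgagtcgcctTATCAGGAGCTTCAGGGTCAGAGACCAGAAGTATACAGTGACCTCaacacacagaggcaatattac
Klrc1, inhibitory motif (ITIM): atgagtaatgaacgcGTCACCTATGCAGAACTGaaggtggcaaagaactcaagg
Klrb1b, ITIM: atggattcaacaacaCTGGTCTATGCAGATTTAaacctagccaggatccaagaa
Klrg1, ITIM: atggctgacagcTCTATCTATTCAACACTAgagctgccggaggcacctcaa
Cd244, first switch motif: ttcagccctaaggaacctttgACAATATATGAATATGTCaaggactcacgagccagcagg
Hcst has 1 short tyrosine motif and Tyrobp a long one with 2 tyrosine codons. The inhibitory motifs of Klrc1, Klrb1b and Klrg1 begin within the first codons of each reading frame, and Cd244 holds 4 matches to the switch motif, of which the first is shown. The same search found a second match in Klrg1 and 1 match each in Klrk1 and Klrc2, which code for activating receptors, and none in Klrd1 or Klre1. A match is a description of the letters only.

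Positions are from the same annotation. Hcst at chr7:30417712-30419854 (minus strand) and Tyrobp at chr7:30413760-30417585 (plus strand) are neighbours whose 3′ ends lie 126 bases apart. The NK gene complex on chromosome 6 holds Klre1 (chr6:129577905-129585827, plus), Klrd1 (chr6:129591782-129598775, plus), Klrk1 (chr6:129610323-129623864, minus), Klrc2 (chr6:129647496-129660689, minus) and Klrc1 (chr6:129666015-129678973, minus) within 101 kb. Klrb1b (chr6:128813706-128826331, minus) and Klrg1 (chr6:122270596-122282882, minus) lie outside this 101 kb stretch of the same chromosome. Cd244 (chr1:171559193-171609746, plus, named Cd244a in GENCODE) lies on chromosome 1. The library reads the 3′ end, so 50-base windows of each gene's 3′ end were searched in all other transcripts. For Klrc1 60.9% of windows recurred in Klrc2 or Klrc3, for Klrc2 20.1% recurred in Klrc1 or Klrc3, and for Klrb1b 24.2% recurred in relatives that include the overlapping gene Gm44511. The split between Klrc1 and Klrc2 is therefore uncertain, while the other 7 genes shared no window. The reference is of another strain than FVB/NJ, and what that does to these counts was not tested.

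DETCs held high RNA levels of 5 of the 10 genes and very low levels of the rest. In order, the levels in the isotype library were 930 CPM for Hcst, 647 for Klrd1, 448 for Klrk1, 406 for Cd244 and 139 for Klrb1b. The same order held in the Skint1 antibody library, at 968, 615, 424, 415 and 129 CPM. In that library the intervals of Klrk1 (415 to 434 CPM) and Cd244 (406 to 424 CPM) overlapped, so this neighbouring pair did not differ beyond counting error there. The other 5 genes all lay below 9 CPM, with Klrc2 at 8.12 and 8.50, Klrc1 at 7.71 and 7.81, Tyrobp at 5.73 and 6.95, Klre1 at 2.52 and 1.82, and Klrg1 at 0.341 and 0 CPM. UMIs mark 3′ ends, one per molecule, so these levels were not scaled by gene length.

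**Figure D1:**
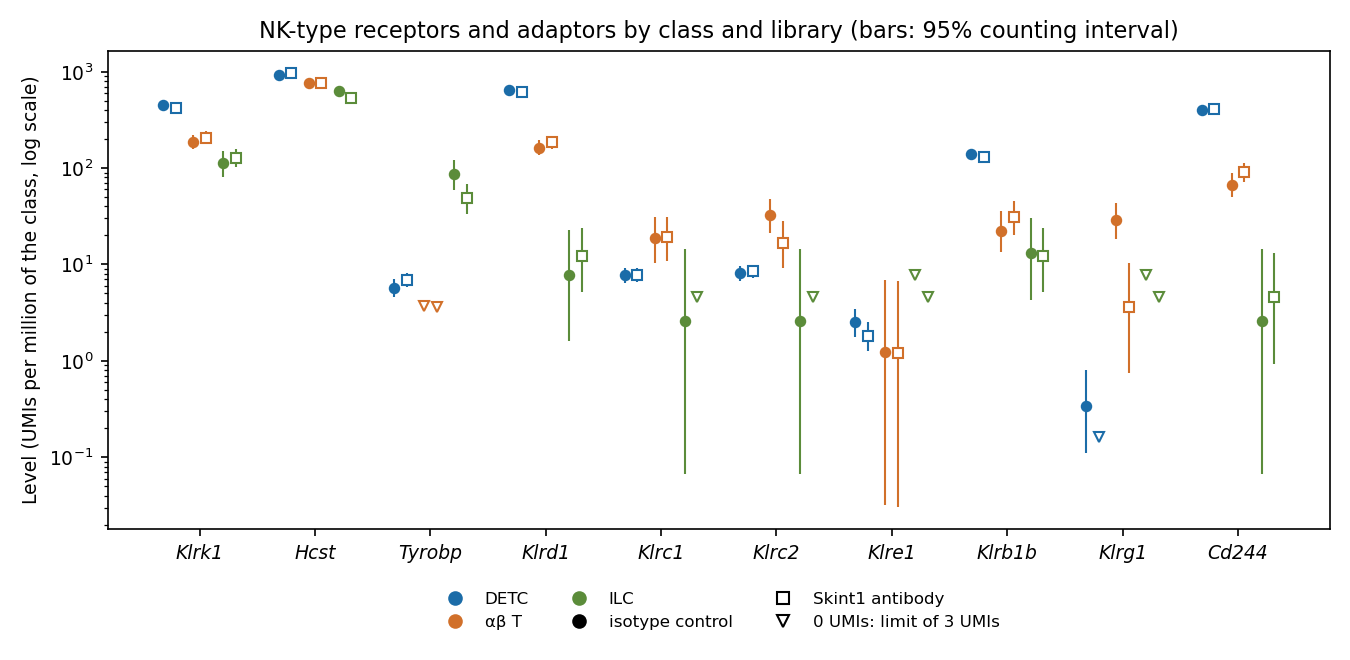
Level of each gene (UMIs per 1000000 of the class total, log scale) in DETCs, αβ T cells and ILCs of the isotype library (filled circles) and the Skint1 antibody library (open squares), with 95% counting intervals. Hcst, Klrd1, Klrk1, Cd244 and Klrb1b sat above 100 CPM in DETCs of both libraries, and open triangles mark the limit that 0 UMIs allow.

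Against the other lymphocytes of the same libraries, 4 of the 10 genes (Klrk1, Klrd1, Klrb1b and Cd244) were at least 2-fold higher in DETCs than in αβ T cells in both libraries, where 8.10% of the 5421 genes with a mean of at least 20 CPM were. Because the 10 genes were chosen with earlier results of these data known, this contrast is not that of a blind list. None of the 10 was 2-fold lower in both libraries among those at that level, where 4.85% of all genes were. The same 4 genes were at least 2-fold higher in DETCs than in ILCs, where 11.3% of 5510 genes were. Klrd1, Klrb1b and Cd244 lay under 20 CPM in ILCs and reached the minimum only through DETCs, which fixed their direction, so nothing is read from this count either way. Tyrobp was the 1 gene counted as lower than in ILCs, where 5.88% of all genes were, but it reached the minimum level only through the 2 ILC barcodes per library that held it, so its direction was fixed too. Only 5 of the 10 reached the minimum level in the first comparison and 6 in the second, so the low genes could not enter these counts. The median gene differed little, by log2 ratios of 0.11 and 0.15 over αβ T cells and 0.08 and 0.15 over ILCs.

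Klrk1 had 6564 UMIs in isotype DETCs and 7937 in Skint1 antibody DETCs. In αβ T cells it stood at 189 and 207 CPM, and in ILCs at 112 and 127 CPM. DETCs were thus higher than αβ T cells by log2 ratios of 1.248 (1.01 to 1.49) and 1.04 (0.82 to 1.26), so the second interval reached below 2-fold. Over ILCs the log2 ratios were 1.995 (1.56 to 2.46) and 1.74 (1.43 to 2.06). Klrk1 was the gene of the 4 with the smallest excess in DETCs over both classes. Among αβ T cells with a Cd8a or Cd8b1 UMI (25 and 17 cells, a split made after the values were seen), Klrk1 stood at 362 and 414 CPM, and DETCs were higher by log2 ratios of 0.31 (-0.14 to 0.79) and 0.04 (-0.49 to 0.61). DETCs and these CD8 cells were not distinguishable in Klrk1 at this depth. αβ T cells with Cd4 held less, at 144 and 135 CPM.

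Hcst was the most abundant of the 10 in every class. It stood at 768 and 759 CPM in αβ T cells and at 632 and 534 CPM in ILCs. With the main cell limits the excess in DETCs was small, at log2 ratios of 0.28 and 0.35 over αβ T cells and 0.56 and 0.86 over ILCs. With no upper limit on genes, the log2 ratios over ILCs were 2.37 and 2.78. Over αβ T cells with Cd8a or Cd8b1, which held 724 and 1256 CPM, the log2 ratios were 0.36 and -0.38 (-0.68 to -0.06), so DETCs were lower in the Skint1 antibody library. Per 100 Klrk1 UMIs, DETCs held 208 (202 to 214) and 228 (222 to 234) Hcst UMIs, αβ T cells 407 and 367, and ILCs 563 and 419. Among αβ T cells with Cd8a or Cd8b1 (25 and 17 cells) there were 80 Hcst beside 40 Klrk1 UMIs and 88 beside 29, and barcodes of no class with an Ncr1 UMI (6 and 11, chosen after the values were seen) held 131 (65.3 to 269) and 158 (107 to 235) per 100. The DAP10 gene was therefore in excess of its receptor gene in these groups, except that the isotype Ncr1 interval reached below 100, and the DETC values lay between those of the Ncr1 barcodes and of the αβ T class.

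Tyrobp was the counterpart, with 84 and 130 UMIs in all DETCs together. It was found in 56 of 3544 and 82 of 4945 DETCs, mostly as 1 UMI, and the 10 cells with most Tyrobp held 45.2% and 42.3% of its UMIs. Per 100 Hcst UMIs, DETCs held 0.616 (0.491 to 0.763) and 0.718 (0.599 to 0.853) Tyrobp UMIs. The DETC level was 21.1% and 25.6% of that in barcodes with 1 to 100 UMIs, which hold RNA free of cells, where Tyrobp stood at 27.1 and 27.2 CPM. The DETCs with Tyrobp carried Trdv4 in 89.3% and 89.0% of cells, beside 88.4% and 83.8% of the others, and a UMI of Lyz2, Cd207, Csf1r or Csf3r was seen in 0 and 1 of them. Cd74 or H2-Aa, which antigen-presenting cells express, was seen in 7.14% and 4.88% of DETCs with Tyrobp (4 cells each) against 2.18% and 1.87% of the others, and the part of such RNA in the Tyrobp count was not tested.

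No Tyrobp UMI was found in αβ T cells, beside 615 and 635 Hcst UMIs, which allows levels of up to 3.75 and 3.59 CPM. In ILCs its 86.2 and 48.5 CPM came from 2 cells in each library. Without the barcodes that hold 10 or more Krt5 and Krt14 UMIs or a UMI of Lyz2, Cd207, Csf1r or Csf3r, an alternative added after the data were seen, Tyrobp was no longer counted as lower in DETCs than in ILCs. The highest Tyrobp levels lay outside all 3 classes. The barcodes of no class with Ncr1 held Tyrobp at 2407 and 2847 CPM, in every one of these barcodes, with 376 and 227 Tyrobp UMIs per 100 Hcst. DETCs thus held abundant RNA of the DAP10 gene and little of the DAP12 gene.

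**Figure D2:**
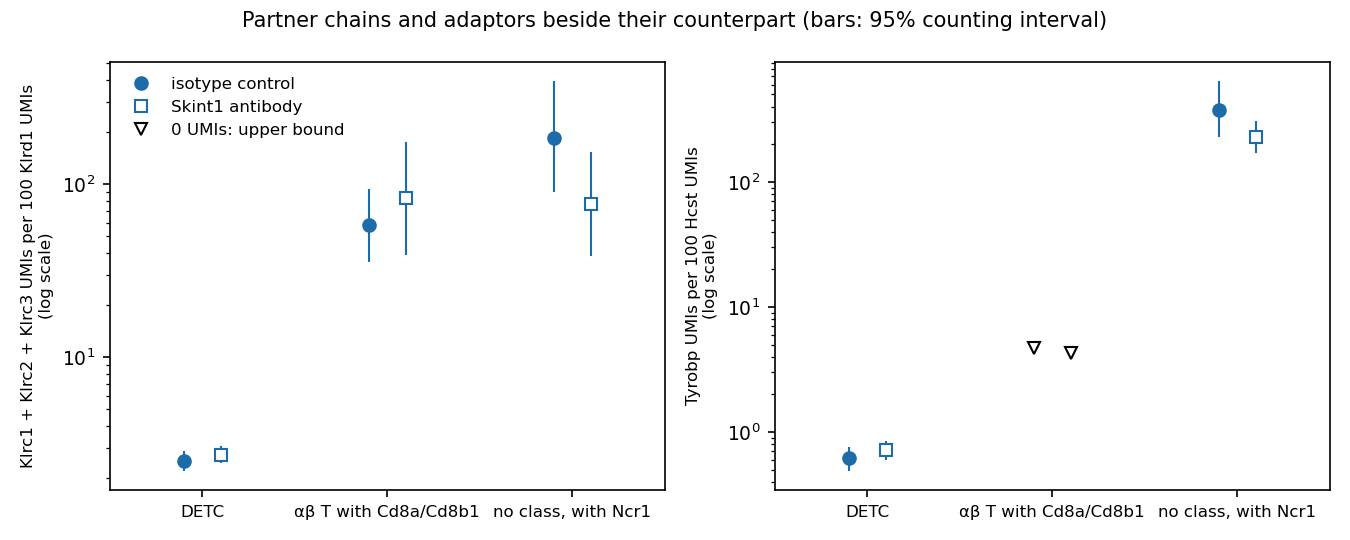
UMIs of the CD94 partners per 100 Klrd1 UMIs (left) and of Tyrobp per 100 Hcst UMIs (right), on log scales, in DETCs, in αβ T cells with Cd8a or Cd8b1 and in barcodes of no class with Ncr1, with 95% counting intervals. DETCs lay at 2.52 and 2.73 on the left and 0.616 and 0.718 on the right, far below the Ncr1 barcodes in both libraries.

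Klrd1 was the most abundant receptor gene of the 10, with 9487 and 11495 UMIs in DETCs. It stood at 164 and 185 CPM in αβ T cells and at 7.84 and 12.1 CPM in ILCs, from 3 and 8 UMIs. DETCs were higher than αβ T cells by log2 ratios of 1.98 (1.74 to 2.24) and 1.73 (1.501 to 1.97). Over ILCs the log2 ratios were 6.37 (4.82 to 8.65) and 5.66 (4.68 to 6.87). The ILC level was 1.79% and 2.86% of that in free RNA, similar to the 1.64% and 1.36% of the T cell receptor gene Trdc, so it lay at background. CD8 αβ T cells held more Klrd1 than the class as a whole, at 452 and 257 CPM, and DETCs were still higher by log2 ratios of 0.52 (0.12 to 0.95) and 1.26 (0.60 to 2.01).

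The NKG2 partners of CD94 did not follow it. Klrc1 had 113 and 146 UMIs in DETCs and Klrc2 had 119 and 159, and each was seen in fewer than 3% of DETCs. Klrc3, a relative outside the 10, had 7 and 9 UMIs. Together the 3 partner genes gave 2.52 (2.21 to 2.87) and 2.73 (2.43 to 3.06) UMIs per 100 Klrd1 UMIs in DETCs. A read counted to the wrong one of these genes leaves the sum as it is, but reads that fit more than 1 gene may not be counted at all, and that loss was not tested. In αβ T cells it was 32.1 (22.1 to 45.7) and 19.4 (12.6 to 28.8), and in CD8 αβ T cells 58.0 (35.4 to 93.5) and 83.3 (39.1 to 175). The Ncr1 barcodes held 185 and 77.3 partner UMIs per 100 Klrd1. By this measure the CD94 gene of DETCs stood with less counted partner RNA than in αβ T cells or the Ncr1 barcodes.

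Klrc1 and Klrc2 were in fact lower in DETCs than in the αβ T class as a whole. Klrc1 stood at 18.7 and 19.1 CPM in αβ T cells, a log2 ratio of -1.28 (-2.06 to -0.40) and -1.29 (-2.04 to -0.45) for DETCs. Klrc2 stood at 32.5 and 16.7 CPM, so DETCs held 0.25 and 0.51 times that level, with log2 intervals of -2.62 to -1.33 and -1.77 to -0.07. These αβ T levels rest on 14 to 26 UMIs. αβ T cells with Cd8a or Cd8b1 (25 and 17 cells) held 8 and 9 of the Klrc1 UMIs and 21 and 6 of the Klrc2 UMIs. Over αβ T cells with Cd4, the log2 ratios of Klrc1 were 0.53 (-1.98 to 5.85) and -0.36 (-2.24 to 2.70), no difference beyond counting error. Klrc2 had 0 and 5 UMIs in the cells with Cd4, with a Skint1 antibody log2 ratio of -1.56 (-2.81 to 0.08). Without the 10 cells with most Klrc1 in each class, its log2 ratio turned to 1.19 and 1.35, but only 12 αβ T cells in each library held Klrc1, so this step nearly empties that class and says little on stability. The same step took the isotype log2 ratio of Klrc2, seen in 16 αβ T cells, to -0.37. Klre1, whose product pairs with KLRI1 or KLRI2, had 37 and 34 UMIs in DETCs and 1 UMI in αβ T cells of each library, and none in ILCs.

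Klrb1b, an inhibitory receptor gene, had 2030 and 2417 UMIs in DETCs. Its levels were 22.5 and 31.1 CPM in αβ T cells and 13.1 and 12.1 CPM in ILCs. DETCs were higher than αβ T cells by log2 ratios of 2.62 (1.96 to 3.38) and 2.06 (1.501 to 2.67), and than ILCs by 3.41 in both libraries. Gm44511, which overlaps Klrb1b on the same strand, stood at 22.9 and 21.4 CPM in DETCs. Klrg1, a further inhibitory receptor gene, was all but missing from DETCs, with 5 UMIs in 3 isotype cells and 0 UMIs in all Skint1 antibody cells. In αβ T cells it had 23 UMIs in 10 cells and 3 UMIs in 3 cells, so the isotype library was higher there, by a log2 ratio of -3.002 (-5.38 to -1.27) for Skint1 antibody over isotype. Of the 23 UMIs, 12 lay in 5 cells with Cd4.

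Cd244 had 5946 and 7764 UMIs in DETCs, 54 and 76 in αβ T cells and 1 and 3 in ILCs. DETCs were higher than αβ T cells by log2 ratios of 2.59 (2.20 to 3.003) and 2.19 (1.87 to 2.54). Over ILCs the log2 ratios were 7.28 and 6.51, and the ILC levels of 2.61 and 4.55 CPM were 2.01% and 2.82% of those in free RNA. Cd244 was also higher in DETCs than in CD8 αβ T cells, which held 163 and 28.6 CPM, from only 18 and 2 UMIs. The log2 ratios were 1.32 (0.66 to 2.07) and 3.86 (2.01 to 6.91). Ly9, which lies opposite Cd244 on the other strand, had only 7.50 and 8.18 CPM in DETCs.

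The αβ T values were in part those of barcodes with Trdc. In αβ T barcodes with Trdc, Klrd1 stood at 229 and 469 CPM, Cd244 at 193 and 298 CPM and Klrb1b at 66.3 and 101 CPM. In those without Trdc, Klrd1 stood at 147 and 71.9 CPM, Cd244 at 34.7 and 8.36 CPM and Klrb1b at 11.0 and 3.35 CPM. Against the latter, the log2 ratios of DETCs were 2.14 and 3.09 for Klrd1, 3.55 and 5.63 for Cd244 and 3.65 and 5.27 for Klrb1b, all larger than against the whole class. For Klrk1 the log2 ratios were 1.49 and 1.37. The part that mixed barcodes play in the αβ T values was not tested. The summed markers of dermal γδ T cells (8 of 10 in the table) came to 603 and 574 CPM in the αβ T class and 78.0 and 81.7 CPM in DETCs.

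In ILCs the level of each gene was set beside its level in free RNA. Klrd1, Cd244 and Trdc were all below 3% of it, whereas Klrk1 was at 52.5% and 54.4%, Hcst at 77.1% and 70.1% and Klrb1b, from 5 and 8 UMIs, at 20.7% and 19.3%. Tyrobp was at 318% and 179%, from the 2 cells in each library described above.

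At equal depth Klrd1, Klrk1 and Cd244 were each seen in over 50% of DETCs and Klrb1b in fewer. Cells were thinned to 2000 UMIs each, which kept 3410 and 4743 DETCs and left out 134 and 202 shallower ones. Klrd1 was then seen in 69.5% (68.0 to 71.1) and 67.2% (65.8 to 68.5) of DETCs, Klrk1 in 56.4% and 53.1%, Cd244 in 54.3% and 56.5% and Klrb1b in 23.8% and 22.9%. Without thinning the shares were 85.6% and 84.4% for Klrd1, 75.2% and 72.2% for Klrk1, 77.6% and 75.7% for Cd244 and 41.7% and 36.9% for Klrb1b. Hcst was seen in 79.5% and 81.5% of thinned DETCs. αβ T cells with Klrd1 made up 18.4% and 22.96%, those with Klrk1 25.3% and 29.1% and those with Cd244 8.95% and 10.7%. In thinned ILCs, whose Klrd1 and Cd244 lay at background, Klrd1 was seen in 1.30% and 2.21% and Cd244 in 0% and 0.735%. Without thinning the ILC shares were 3.66% and 4.32% for Klrd1 and 1.22% and 2.16% for Cd244. Median depths were then 4570 and 4334 UMIs in ILCs beside 4028 and 3577 in DETCs.

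**Figure D3:**
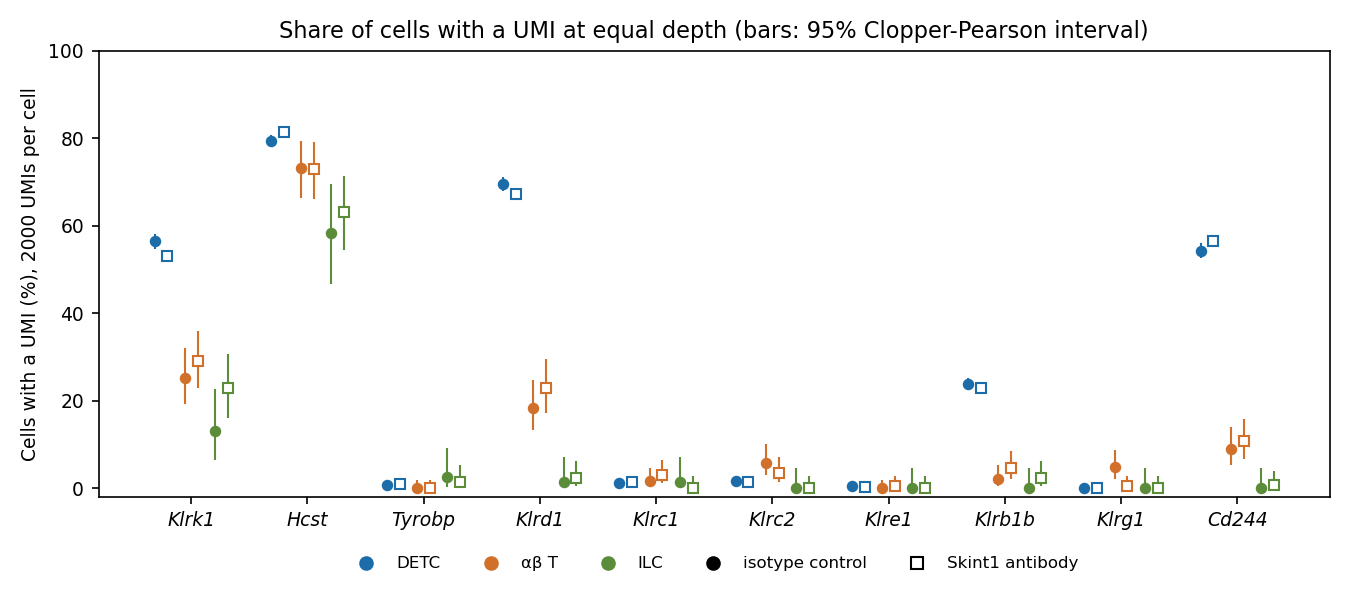
Share of cells with at least 1 UMI of each gene after thinning to 2000 UMIs per cell, by class and library, with 95% Clopper-Pearson intervals. Klrd1, Klrk1 and Cd244 were seen in over 50% of DETCs in both libraries, and Tyrobp, Klrc1, Klrc2, Klre1 and Klrg1 in under 2%.

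Of the 4 receptor genes Klrk1, Klrd1, Klrb1b and Cd244, a thinned DETC showed 2 most often, in 39.4% and 39.3% of cells. All 4 were seen in 5.54% and 5.17%, and none in 5.48% and 5.97%. Among the abundant genes, receptors and partners were seen about as often with as without each other, with the widest gap for Klrk1 and Klrd1 in the isotype library. Hcst was found in 79.7% and 81.9% of DETCs with Klrk1 and in 79.2% and 81.1% of those without. Klrd1 was found in 71.7% and 68.2% of DETCs with Klrk1 and in 66.8% and 66.0% of those without, and Cd244 in 54.2% and 56.1% of those with and 54.3% and 57.0% of those without.

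Klrc1 and Klrc2 were seen in the same cells more often. Klrc2 was found in 26.2% (13.9 to 42.0) and 11.3% (4.99 to 21.0) of thinned DETCs with Klrc1, from 11 and 8 cells, and in 1.22% and 1.35% of those without. These genes share 3′ sequence, so reads of 1 gene can be counted to the other, and the part of this in the overlap was not tested. Klrc1 did not go with Klrd1 in a fixed direction, at 1.10% and 1.70% of DETCs with Klrd1 and 1.54% and 1.09% of those without. Tyrobp was found in 0.520% and 0.953% of DETCs with Klrk1 and 1.08% and 1.12% of those without.

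DETCs were next compared by state, with states set by other genes. Cycling DETCs (at least 2 UMIs over 9 proliferation genes after thinning) numbered 146 and 169. All 5 abundant genes were lower in cycling DETCs in both libraries, with each of the 10 intervals below 0. Klrd1 stood at 488 against 654 CPM and at 444 against 622 CPM, log2 ratios of -0.42 (-0.58 to -0.27) and -0.49 (-0.64 to -0.34). Klrk1 was lower by log2 ratios of -0.48 and -0.31, Cd244 by -0.50 and -0.21, Klrb1b by -0.45 and -0.34 and Hcst by -0.32 and -0.15. Among the scarce genes, Klre1 was higher, at 1.19 (-0.77 to 2.68) and 2.23 (0.65 to 3.54), from 4 and 6 UMIs in cycling DETCs. Klrc2 stood at -2.59 and -0.30, from 1 and 6 UMIs in cycling DETCs. The median gene stood at -0.02 and -0.05 in the same comparison, and the share of all genes lower in cycling DETCs is not given here. With isotype all 5 intervals lay below the median gene. With Skint1 antibody those of Klrk1 and Klrd1 did. Those of Hcst (-0.255 to -0.043), Cd244 (-0.381 to -0.0485) and Klrb1b (-0.658 to -0.030) held the median gene, at -0.0529. Cycling cells were deeper, at medians of 4910 against 4054 UMIs and 5267 against 3604 UMIs, which the scaling to the class total takes into account.

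Across immediate early genes such as Fos, Jun and Egr1, the 5 genes differed. In the upper against the lower tercile of DETCs (1136 and 1581 cells each), Klrb1b was higher, at 148 against 129 CPM and 140 against 125 CPM, log2 ratios of 0.20 (0.04 to 0.35) and 0.16 (0.01 to 0.30). Klrk1 hardly differed, at 0.03 and -0.07, while Klrd1 was lower, at -0.27 and -0.39, and Cd244 was lower, at -0.30 and -0.27. Hcst stood at -0.17 and -0.33. The median gene was at -0.22 and -0.19, so relative to it Klrb1b and Klrk1 were higher in both libraries and Klrd1 and Hcst were lower with Skint1 antibody, while Cd244 did not differ from it beyond counting error. Across heat shock genes all 5 stayed within -0.13 and 0.07. In DETCs with a UMI of Xcl1 or Gzmc (673 and 482 cells), Klrd1 had log2 ratios of 0.14 and -0.05 and Klrb1b of 0.20 and -0.15 over the other DETCs, so the intervals lay above 0 only with isotype, and this difference between libraries was not tested. Cd244 was lower in both libraries, at -0.10 (-0.19 to -0.0014) and -0.17 (-0.28 to -0.06), and Klrk1 stood at 0.02 and -0.11. Tyrobp differed most among the 10 genes in the Skint1 antibody library, at 17.7 against 5.73 CPM, a log2 ratio of 1.63 (1.02 to 2.20) from 35 and 94 UMIs, beside -0.38 (-1.36 to 0.49) with isotype. Since 10 cells held 55 of the 130 Tyrobp UMIs in DETCs of that library, this interval, which takes UMIs as independent, is too narrow.

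**Figure D4:**
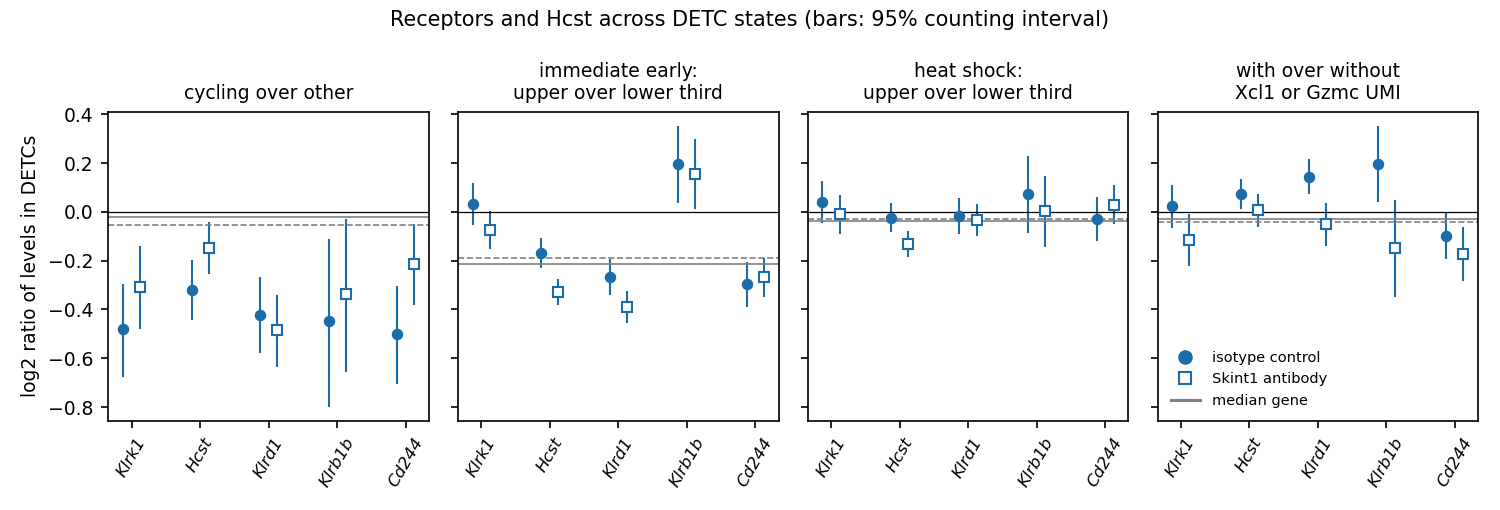
Log2 ratio of levels in DETCs between states set by other genes, for the 5 abundant genes in both libraries, with 95% counting intervals and the median gene as grey lines. All points for cycling cells lie below 0, from -0.15 to -0.50, and Klrb1b lies above 0 for immediate early genes in both libraries.

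Between libraries the 5 abundant genes differed little in DETCs. Among those with a mean of at least 10 CPM, none of the 10 genes was at least 25% higher in the Skint1 antibody library, where 1.13% of 7549 genes were, and none was at least 20% lower, which is the same fold downward, where 2.65% were. The 5 genes at that level had log2 ratios of Skint1 antibody over isotype of -0.08 (-0.13 to -0.03) for Klrk1, 0.06 (0.03 to 0.09) for Hcst, -0.07 (-0.11 to -0.04) for Klrd1, -0.10 (-0.19 to -0.01) for Klrb1b and 0.03 (-0.02 to 0.08) for Cd244. Their median was -0.07, beside -0.03 over all genes and a range from -0.20 to 0.13 between the 10th and 90th percentiles. The low genes were less well bounded, at 0.28 (-0.13 to 0.69) for Tyrobp, 0.02 for Klrc1, 0.07 for Klrc2 and -0.47 (-1.19 to 0.24) for Klre1. Klrg1 had 5 UMIs against 0. All 9 genes with UMIs in both libraries had a median of 0.02. At equal depth Klrk1 was seen in 56.4% (54.7 to 58.1) of isotype and 53.1% (51.7 to 54.5) of Skint1 antibody DETCs, and Hcst in 79.5% (78.1 to 80.8) and 81.5% (80.4 to 82.6).

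**Figure D5:**
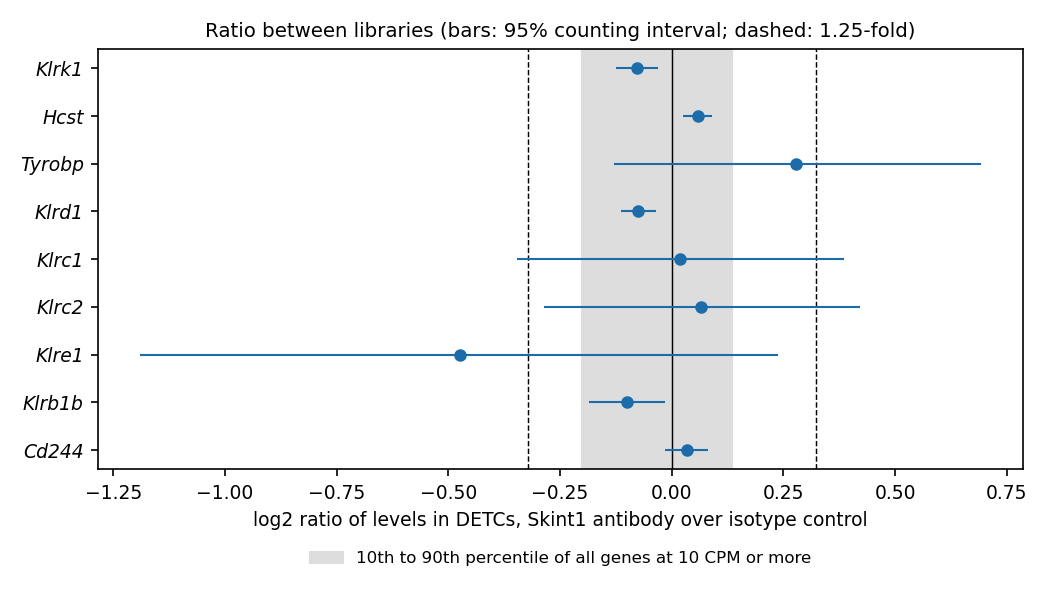
Log2 ratio of levels in DETCs, Skint1 antibody over isotype control, for the 9 genes with UMIs in both libraries, with 95% counting intervals, the 10th to 90th percentile of all genes in grey and dashed lines at a level 25% higher and 20% lower. The 5 abundant genes lie between -0.10 and 0.06, inside the grey band, and the scarce genes Tyrobp and Klre1 have wide intervals.

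The genes around these receptors were read from lists chosen by function. Ly49 genes and the Klr genes outside the 10 were scarce in DETCs. None of the 11 Ly49 genes in the table reached 10 CPM, with the highest, Klra5, at 4.91 and 4.06 CPM. Of 7 other Klr genes only Klrb1f did, at 18.9 and 13.0 CPM, a log2 ratio between libraries of -0.54 (-0.80 to -0.29). Klrb1c, the NK1.1 gene, had 7.98 and 4.06 CPM and Klrb1a had 4.502 and 1.87 CPM. Klri2, a partner gene for Klre1, had 1.23 and 1.07 CPM.

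Among 7 other adaptor genes, 5 reached 10 CPM, none passed this fold between libraries (1.13% of all genes upward and 2.65% downward) and 2 were at least 2-fold higher than in αβ T cells (8.10% of all genes). Fcer1g, an ITAM adaptor of Fc receptors, stood at 2372 and 2527 CPM in DETCs against 366 and 509 CPM in αβ T cells. Cd247, the CD3ζ gene, stood at 794 and 685 CPM against 189 and 213 CPM. Lat (398 and 385 CPM) and Sh2d2a (66.2 and 62.4 CPM) were also present. DETCs therefore held abundant RNA of other ITAM adaptors beside their near lack of Tyrobp. The adaptors of 2B4 were a contrast, chosen after their values were seen. Sh2d1a (SAP) had 0.136 and 0.0535 CPM in DETCs against 13.7 and 16.7 CPM in αβ T cells, log2 ratios of -6.65 and -8.29. Sh2d1b1 (EAT-2) had 0.273 and 0.428 CPM in DETCs, so Cd244 stood at over 400 CPM with almost no RNA of either adaptor.

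Of 14 genes of signaling after the receptors, 11 reached 10 CPM, none was past the fold upward (1.13% of all genes) and 1 was past it downward (2.65% of all genes), Pik3r1, at 196 and 154 CPM and a log2 ratio of -0.35 (-0.42 to -0.27). Of those with a mean of at least 20 CPM in each comparison, 2 of 10 were at least 2-fold higher than in αβ T cells (8.10% of all genes) and 4 of 11 than in ILCs (11.3%). Pik3cd, a PI3K catalytic subunit gene, stood at 326 and 316 CPM in DETCs and 67.4 and 95.6 CPM in αβ T cells. Lck had 335 and 333 CPM and Plcg1 115 and 114 CPM. Zap70 had 102 and 81.6 CPM, whereas Syk, the other kinase of ITAMs, had 0.0682 and 0 CPM (both named after their values were seen). Among the 3 phosphatase genes that inhibitory motifs recruit, Ptpn6 (SHP-1) was lower in the Skint1 antibody library, at 153 and 78.3 CPM and a log2 ratio of -0.97 (-1.06 to -0.87). Inpp5d stood at 64.3 and 58.9 CPM and Ptpn11 at 52.9 and 50.5 CPM, neither past the fold.

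Of 12 other receptor genes for cell surface ligands in the table, 5 reached 10 CPM in DETCs. Of the 7 with a mean of at least 20 CPM over DETCs and αβ T cells, 3 were at least 2-fold higher and 4 at least 2-fold lower in DETCs in both libraries, against 8.10% and 4.85% of all genes. Of the 4 lower ones, Slamf6 (0.205 and 0.107 CPM in DETCs) and Cd84 (1.501 and 1.764 CPM) reached that mean only through αβ T cells, and Crtam, among the higher ones, only through DETCs, which fixed their direction, so nothing is read from these counts. Cd96 (304 and 279 CPM), Cd160 (133 and 126 CPM) and Crtam (65.1 and 54.4 CPM) were the higher ones. Jaml, which binds a junction protein of KCs, had 106 and 88.9 CPM in DETCs but 337 and 323 CPM in αβ T cells. Slamf1, in the same family as Cd244, was over 20% lower in the Skint1 antibody library, at 30.0 and 21.9 CPM and a log2 ratio of -0.45 (-0.65 to -0.26).

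DETCs also held RNA for ligands of these receptors. Of 9 ligand genes 4 reached 10 CPM, among them Cdh1, the KLRG1 ligand, at 227 and 229 CPM against 69.9 and 46.6 CPM in αβ T cells. Clec2d, the NKR-P1B ligand, stood at 147 and 140 CPM and Cd48, the 2B4 ligand, at 77.4 and 74.1 CPM. H2-T23, the gene of the CD94/NKG2 ligand, was over 20% lower in the Skint1 antibody library, at 98.6 and 78.1 CPM and a log2 ratio of -0.34 (-0.44 to -0.23), and was lower in DETCs than in αβ T cells, which held 242 and 191 CPM. The 5 NKG2D ligand genes of the list, also named after their values were seen, were all below 10 CPM in DETCs, with Ulbp1 at 8.73 and 9.68 CPM, H60b at 1.91 and 1.55 CPM, H60c at 0.0682 and 0.107 CPM, and Raet1d and Raet1e listed at 0.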

How the data were processed

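The authors made the matrices with Cell Ranger 3.0.2 on mm10 (GRCm38), and deposited them as unfiltered UMI counts, with all barcodes kept. Depth was 27272211 (isotype) and 32450957 (Skint1 antibody) UMIs, of which DETCs held 14659876 and 18706191. Counts were summed per class and library and divided by the class total (UMIs per 1000000, CPM). Ratios are log2 without pseudocount. Intervals were exact Poisson for levels, conditional binomial for ratios and Clopper-Pearson for shares, computed with scipy 1.17.1, pandas 2.3.3 and numpy 2.4.6 under Python 3.11.15. A count of 0 was read as up to 3 UMIs. No doublet caller was run, and the limit of 2500 genes and the class rules were the only guard against doublets. Barcodes that met both the αβ T and the ILC rule (9 and 14) counted in both. The 10 genes and all lists were chosen with earlier results of these data known. Named beside them were the 4 genes with the highest mean DETC level in each list and any at least 25% higher or 20% lower between libraries. Ratios were tested on simulated data first. Alternatives varied the cell filters, class rules, scaling, cell weights, depth and minimum level.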

Additional observations from a re-analysis of the deposited data

Results flagged for a closer look

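Hcst differed in direction between the classes when libraries were compared. In ILCs its level was 632 CPM with isotype and 534 CPM with Skint1 antibody, a log2 ratio of -0.24 (-0.48 to -0.0015), while in DETCs it was 0.06 (0.03 to 0.09). The intervals lay on opposite sides of 0, and the difference itself was not tested. Summed KC markers in ILCs were 449 and 3609 CPM in the same libraries. Among ILCs without a Krt5 or Krt14 UMI, some of which still held Krt10, Hcst stood at 634 (556 to 721) and 593 (531 to 660) CPM, with overlapping intervals, so the opposite direction did not hold there beyond counting error.

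Tyrobp was high in barcodes that met no class rule (428 and 678 cells), at 193 (174 to 214) and 155 (140 to 170) CPM, above all 3 classes of the same library. Barcodes with an Ncr1 UMI held 21.8% and 38.7% of these UMIs, and barcodes with a UMI of Lyz2, Cd207, Csf1r or Csf3r (13 and 9) held 37.5% and 31.3%.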

How the results depend on the processing

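Klrk1, Klrd1, Klrb1b and Cd244 stayed at least 2-fold higher in DETCs than in both other classes in both libraries under every alternative that gave a value, with the lowest log2 ratios at 1.02 for Klrk1 over αβ T cells (Skint1 antibody library, no upper limit on genes) and 1.06 over ILCs (isotype library, mitochondrial UMIs at most 5%). Counts over the 10 genes moved with the low genes. Genes lower than in αβ T cells went from 0 to 1 with mitochondrial UMIs at most 5% (Klrc2) and to 1 with no minimum but 1 UMI (Klrc1). Genes lower than in ILCs (Tyrobp) went from 1 to 0 without the 10 cells with most UMIs and to 0 without keratin-rich and myeloid barcodes. Genes past the fold between libraries (25% higher or 20% lower) went from 0 to 1 with mitochondrial UMIs at most 5% (Klrc2), to 1 with no upper limit on genes (Tyrobp) and to 1 with no minimum (Klre1). Klrc1 over αβ T cells reversed to 1.19 and 1.35 without the 10 cells with most UMIs, where the αβ T class has 15 and 16 UMIs in 12 cells of each library, so the step nearly empties it. Tyrobp between libraries went to -0.64 with mitochondrial UMIs at most 5%. With no upper limit on genes, Hcst over ILCs went to 2.37 and 2.78. The cause was not tested. Over all genes, the share past the fold between libraries went from 1.13% up and 2.65% down to 4.10% and 6.0% with mitochondrial UMIs at most 5%, 13.0% and 18.1% with no minimum and 2.21% and 4.94% in thinned cells, and the share past 2-fold between DETCs and ILCs went from 11.3% higher and 5.88% lower to 20.3% and 10.0% with no upper limit on genes. Of 313 ratios between classes under alternatives 261 kept their size within the main interval, and of 81 between libraries 78 did, while 28 ratios had no value because 1 group had 0 UMIs. Shares of cells fell at 1000 UMIs per cell, to 36.0% for Klrk1 in isotype DETCs. No paired analysis was possible because each treatment has 1 library, and for the same reason no replicate could be left out.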

Other observations

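The few barcodes with Ncr1 that met no class rule (6 and 11) held the 10 genes in another balance than DETCs. Klrk1 stood at 488 and 796 CPM, Klrd1 at 396 and 389 CPM and Cd244 at 244 and 177 CPM, whereas DETCs held 448 and 424, 647 and 615, and 406 and 415 CPM of these genes. Klrc1 stood at 549 and 159 CPM and Klrc2 at 183 and 124 CPM. Klrb1b had 1 and 0 UMIs there and Klrg1 none. These barcodes were chosen after the values were seen and are few, so the values describe them only.

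Barcodes of no class that held both Trac and Trdv4 (181 and 316) carried 72.9% and 75.7% of the Klrd1 UMIs outside the 3 classes. Prf1, the perforin gene, was the only one of 6 NK marker genes above 10 CPM in DETCs, at 644 and 636 CPM.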
